A study of Mus musculus with 4 samples.

Results

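Class 1 of the deposited clustering is a set of adult mouse mammary nuclei whose open chromatin carried the marker genes of the basal layer. Its members were the nuclei given class 1 in the deposited table of motif scores, assigned to a library by the name in their row, and they numbered 619 of 7846 nuclei. All of them were adult: 201 of 2465 nuclei in adult replicate 1 and 418 of 2804 in adult replicate 2. None of the 882 and 1695 fetal nuclei carried the class. The class held 8.15% of adult replicate 1 (exact binomial 95% interval 7.10% to 9.31%) and 14.9% of adult replicate 2 (13.6% to 16.3%), so its share differed between the libraries beyond counting error. Single-nucleus ATAC-seq was used, in which the Tn5 transposase cuts open chromatin and tags the fragments, and a combination of barcodes marks each nucleus. Wild-type CD1 mice, an outbred strain, were the source of all libraries. Mammary cells had been sorted as positive for the epithelial surface protein EpCAM and negative for lineage markers, from fetuses at embryonic day 18 or from adults at 8 weeks, with 2 libraries at each stage. The labels do not state how many animals a library pooled.

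The mammary epithelium has an inner luminal layer and an outer basal layer that rests on the basement membrane. Basal cells depend on the transcription factor p63, assemble intermediate filaments from keratins 5 and 14, and in the adult gland act as myoepithelial cells that contract in response to oxytocin and so eject milk. The basal layer also holds cells that can rebuild a gland on transplantation, and it sends Notch, Wnt and neuregulin signals to its luminal neighbours.

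Because the authors made the classes by clustering these same reads, a difference between class 1 and other nuclei is part of how the class was made and is no test. No p-value is therefore given, and differences are described by their size and by whether both adult libraries show them. For each library the reads of the class were summed over a gene or a region of 1000 bases. A gene was taken as its span with 2000 bases on either side. Sums were scaled to counts per 1000000 (CPM) of the reads of those nuclei in all tested features of that kind. Features with few reads over the adult nuclei were not tested, and their reads are not in these totals. The difference is that of log2(CPM + 2), which understates changes of low levels, between class 1 and all other listed nuclei of the same library. A feature was called higher or lower when the difference reached 1 or -1 in both adult libraries. The other nuclei are mostly luminal but include class 8, an adult class in which the same basal markers were high (134 and 297 nuclei), and class 8 was also compared by itself. Class 4, with 132 and 338 nuclei of the fetal libraries, was the fetal class set beside class 1. A library is 1 replicate, so SD values below are over 2 libraries and measure only the spread between them.

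Depth was modest. Class 1 nuclei held 853601 and 2035722 reads in adult replicates 1 and 2, with medians of 3731 and 4222 reads per nucleus against 4389 and 5214 in class 8. The share of class 1 moved with depth. Its mean over the adult libraries was 11.5%, and 7.14% among nuclei at or above the median read count. The whole libraries held 13588107 and 19304830 reads of listed nuclei. In a stretch of 1000000 reads of each adult library, 99.9% of reads had another read of the same nucleus within 1000 bases, so counts come in pairs and hold fewer independent fragments than reads. A gene held a median of 92 class 1 reads over both libraries, a promoter region 45 and a distal region 14. No barcode was shared between libraries, and no doublet caller was run.

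All 8 basal marker genes were higher in class 1 than in the other nuclei of both libraries, with a median difference of 2.46 on the log2 scale. Over all 16869 genes tested, 2.29% were called higher and 5.83% lower, and the median difference was -0.12. Krt5, a gene for a basal keratin, lies at chr15:101707069-101712905 (mm10) and reached 89.4 and 89.9 CPM in class 1 against 7.62 and 12 CPM in the other nuclei. Its difference of 2.98 ± 0.37 (SD, n = 2) was the highest of all genes with at least 20 class 1 reads in each library. Krt17, a further basal keratin gene at chr11:100256215-100261029, stood at 141 and 148 CPM against 21.5 and 25.5. Its flanked span overlaps that of Krt42, so part of the reads count for both. Irx4, which encodes a homeobox factor and lies at chr13:73259589-73269622, stood at 125 and 134 CPM against 16.5 and 21.0. Both libraries thus gave nearly the same level for each of these 3 genes, far above the rest. Il17b, for a secreted cytokine, reached 109 and 82.3 CPM against 14.1 and 15.9. Trp63, the gene for p63, spans chr16:25683763-25892088 and held 357 and 346 CPM against 71.4 and 84.2. Krt14, the partner of keratin 5, held 115 and 87.4 CPM against 19.2 and 15.5. The contractile genes Acta2, for smooth muscle actin, and Myh11, for smooth muscle myosin heavy chain, stood at 144 and 148 CPM and at 149 and 158 CPM. In the other nuclei Acta2 stood at 22.5 and 32.5 CPM and Myh11 at 37.8 and 49.1 CPM.

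**Figure D1:**
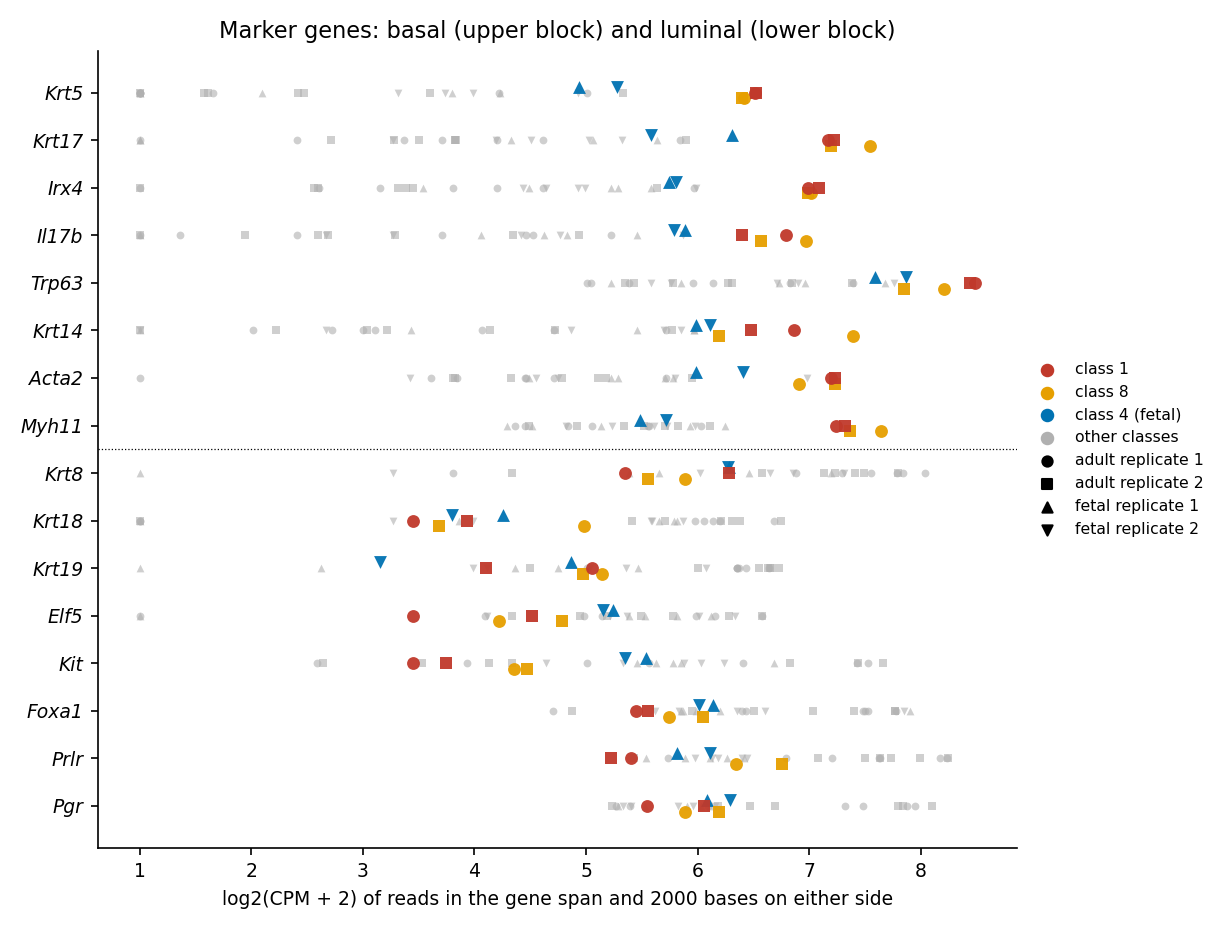
Levels of the 8 basal markers (upper block) and 8 luminal genes (lower block) as log2(CPM + 2) of reads in gene spans, with 1 point per class and library: class 1 in red, class 8 in orange, fetal class 4 in blue and the other classes in grey. For Krt5, class 1 (89.4 and 89.9 CPM) sits beside class 8 (83.1 and 82.1 CPM) and above class 4 (28.6 and 36.8 CPM), while in the luminal block class 1 lies toward the low end.

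Few reads fall on a single gene in a single nucleus, so shares of nuclei with a read are low even for a marker. After each nucleus was thinned to 2000 reads, 68.2% and 70.1% of class 1 nuclei had a read in at least 1 of the 8 basal genes, and 32.8% and 32.1% in at least 2 of them. In class 2, an adult class with high mature luminal genes that serves as background, the share with at least 1 was 9.94% and 10.5%. Trp63 alone was hit in 29.4% and 28.5% of class 1 nuclei (35.3% and 41.1% without thinning), against 3.48% and 4.76% in class 2. Krt5, a much shorter gene, was hit in 8.46% and 8.61% (12.4% and 13.9% without thinning), against 0.124% in class 2 of adult replicate 1 and 0 of 714 nuclei in adult replicate 2. Median reads in class 2 were 4423 and 5666.5. Markers of luminal progenitors were hit in 10.4% and 13.4% of class 1 nuclei, close to the 11.7% and 13.2% of class 2, where that list is also background. Those of mature luminal cells, 5 genes that include the long Esr1 and Prlr, were hit in 28.9% and 27.0% of class 1 nuclei, beside 32.6% and 32.0% of class 7, an adult class with high luminal progenitor genes, and 67.5% and 75.1% of class 2.

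The promoters of Krt5, Acta2 and Irx4, of the calponin gene Cnn1, and of the luminal keratin gene Krt8 for contrast, are shown so that the letters can be read beside their counts. Each runs 5′ to 3′ on the strand of the gene, from 250 bases before the start to 50 after it, as RefSeq gives it for GRCm38.p6. The Irx4 window lies wholly inside the gene span given above, so it surrounds another start than that of the span. Capitals mark matches on either strand to TGANTCA (AP-1), CATTCC (TEAD) and ACAATG (SOX), and to the p53-family half-site and the CArG box of serum response factor, with no mismatch allowed, so near matches are not marked.
Krt5 (chr15:101712856-101713155, minus strand): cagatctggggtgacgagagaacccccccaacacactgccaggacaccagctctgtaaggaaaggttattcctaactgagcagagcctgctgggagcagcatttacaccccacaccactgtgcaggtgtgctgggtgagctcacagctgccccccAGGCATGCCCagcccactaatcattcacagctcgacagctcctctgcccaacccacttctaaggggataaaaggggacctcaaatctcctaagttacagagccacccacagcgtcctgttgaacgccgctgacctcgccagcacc
Acta2 (chr19:34255324-34255623, minus strand): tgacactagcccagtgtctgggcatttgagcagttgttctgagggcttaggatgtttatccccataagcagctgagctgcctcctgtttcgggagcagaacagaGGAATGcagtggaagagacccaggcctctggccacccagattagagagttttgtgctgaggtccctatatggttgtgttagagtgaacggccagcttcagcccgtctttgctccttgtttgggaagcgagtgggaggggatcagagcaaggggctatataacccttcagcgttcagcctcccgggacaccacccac
Cnn1 (chr9:22099003-22099302, plus strand): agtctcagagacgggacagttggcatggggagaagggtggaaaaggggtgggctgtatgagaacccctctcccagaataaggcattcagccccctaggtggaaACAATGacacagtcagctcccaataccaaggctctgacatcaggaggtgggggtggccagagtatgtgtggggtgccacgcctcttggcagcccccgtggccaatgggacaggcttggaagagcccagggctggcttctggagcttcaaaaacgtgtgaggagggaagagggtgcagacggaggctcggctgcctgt
Irx4 (chr13:73260247-73260546, plus strand): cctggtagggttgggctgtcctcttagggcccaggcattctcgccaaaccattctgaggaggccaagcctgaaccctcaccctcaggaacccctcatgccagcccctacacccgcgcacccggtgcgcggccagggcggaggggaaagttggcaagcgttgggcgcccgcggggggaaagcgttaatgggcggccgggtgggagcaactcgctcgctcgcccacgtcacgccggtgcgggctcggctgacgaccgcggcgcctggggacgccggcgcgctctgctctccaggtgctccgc
Krt8 (chr15:102004293-102004592, minus strand): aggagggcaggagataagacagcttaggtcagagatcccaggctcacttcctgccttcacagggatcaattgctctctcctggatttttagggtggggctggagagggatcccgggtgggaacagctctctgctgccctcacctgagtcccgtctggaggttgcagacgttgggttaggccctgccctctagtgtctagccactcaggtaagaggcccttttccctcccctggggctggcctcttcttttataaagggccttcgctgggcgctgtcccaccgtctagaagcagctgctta
Krt5 held 1 p53-family half-site, a match found in 7.17% of all 13395 promoters in the table. Acta2 held 1 TEAD match (12.6% of all promoters), on the opposite strand and so printed as its reverse complement, and Cnn1 held 1 SOX match (8.07%). Irx4 and Krt8 held none of the marked motifs, and no exact match to AP-1 (5.70% of all) or the CArG box (1.30%) occurred in any of the 5 windows. A match describes letters only. Class 1 placed 10 and 22 reads in the Krt5 window, or 11.7 and 10.8 reads per 1000000 of the class, against 0 and 2 reads in class 2. The Acta2 window held 13 and 32 class 1 reads against 2 and 6 in class 2. In the Cnn1 window, class 1 had 15 and 32 reads against 4 and 2. The Irx4 window held fewer class 1 reads, 4 and 17 against 5 and 4 in class 2, or 4.69 and 8.35 against 1.13 and 0.81 reads per 1000000 of the class. In class 8 these windows held 15 and 16 reads at Krt5, 16 and 51 at Acta2, 2 and 17 at Cnn1 and 3 and 12 at Irx4. Per 1000000 reads of the class, class 8 lay above class 1 at Acta2 and below it at Cnn1 and Irx4 in both libraries, and at Krt5 the libraries disagreed (19.7 and 8.17). Krt8 ran the other way, with 5 and 20 class 1 reads against 161 and 159 in class 2, a larger class. Scaled to all reads of the class, this was 5.86 and 9.82 reads per 1000000 against 36.3 and 32.0.

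Genes of contraction made up the basal group that was called most often. This list and the basal lists below were chosen with earlier results of these data known, so their counts are descriptions. Over all tested genes 2.29% were called higher and 5.83% lower, the background for each of these lists. Of 16 contraction genes, 8 were called higher in class 1 and none lower, with a median difference of 1.24. Besides Acta2 and Myh11 the higher genes were Cnn1 for calponin, Lmod1 for a leiomodin and Oxtr for the oxytocin receptor. Myl9 and Mylk, for a myosin light chain and its kinase, and Tpm2, for a tropomyosin, were the others. Cnn1 held 59.6 and 50.7 CPM against 8.94 and 11.6 in the other nuclei (2.22 ± 0.38, SD, n = 2). Oxtr held 176 and 180 CPM against 50.5 and 59.9 (1.66 ± 0.14), and its flanked span overlaps that of Cav3, so reads between them are shared. Mylk held 332 and 344 CPM against 124 and 132 (1.39 ± 0.03). Not all genes of smooth muscle followed. Tagln, for transgelin, had 38.7 and 27.9 CPM against 20.6 and 16.6, and Actg2, for the enteric actin, 20.8 and 5.07 CPM against 5.28 and 6.82. Serum response factor (Srf) differed by 0.05 ± 0.25, and its muscle cofactor myocardin (Myocd) by -0.93 ± 0.36.

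Keratin and adhesion genes divided. Of 15 tested, 4 were called higher: Krt5, Krt17, Krt14 and Lama3, for the laminin 332 alpha chain (430 and 340 CPM against 128 and 146). Lamb3 and Col17a1, which encode its beta chain and a hemidesmosomal collagen, lay just under the threshold at 0.96 ± 0.08 and 0.97 ± 0.19. Itgb4, the hemidesmosomal integrin, differed by -0.15 ± 0.47 and Krt15 by 0.23 ± 0.62. For genes that share a hemidesmosome, the range thus ran from 1.47 to -0.15. In the basement membrane list 4 of 12 genes were called higher. They were Sparc for osteonectin (1.74 ± 0.35), Lama1 for a laminin alpha chain (1.41 ± 0.37), and the type IV collagen genes Col4a1 (1.38 ± 0.07) and Col4a2 (1.41 ± 0.01), which lie head to head and share reads. Nid1, for nidogen, had 28.3 and 41.8 CPM against 51.5 and 56.0.

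Among 16 basal transcription factor genes, Irx4, Trp63, Lbh and Snai2 were called higher and Zeb1 lower. Snai2, for the repressor Slug, held 61.1 and 76.0 CPM against 25.5 and 32.5. Lbh, a Wnt target, held 159 and 144 CPM against 63.4 and 60.3. Zeb1, like Snai2 known from epithelial-mesenchymal transition, held 22.3 and 20.3 CPM against 70.5 and 71.8 in the other nuclei, so these 2 repressor genes lay on opposite sides. Sox10 had 83.4 and 74.7 CPM against 46.8 and 41.5, and Id4, an inhibitor of helix-loop-helix factors, 87.9 and 72.8 against 45.0 and 39.2, both under the threshold. By class mean, class 1 ranked 6 of the 14 classes at Sox10, with 79.1 CPM. The adult luminal classes 7 (104 CPM) and 3 (89.3 CPM) lay above it, and class 2 (8.59 CPM) far below.

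Signalling genes formed the other large basal group, with 7 of 16 called higher and 1 lower. The Notch ligand genes Jag2 (141 and 81.1 CPM against 27.6 and 32.1) and Dll1 (176 and 107 against 41.4 and 44.7) were higher, and in both the class 1 libraries differed from each other. Nrg1, the gene for neuregulin 1, a ligand of ERBB receptors, held 694 and 848 CPM against 221 and 319. Il17b, Wnt10a, and the R-spondin receptor genes Lgr5 (162 and 153 against 47.7 and 63.0) and Lgr6 (247 and 185 against 90.6 and 87.0) completed the group. By class mean, class 1 ranked 7 of the 14 classes at Lgr5 (157 CPM), below class 8 (182 CPM) and fetal class 5 (221 CPM). Areg, for the luminal ligand amphiregulin, was lower at 19.4 and 13.9 CPM against 61.8 and 64.0. The receptor gene it acts through, Egfr, stood at 377 and 486 CPM against 199 and 228, a difference of 1.00 ± 0.12 that did not pass in both libraries.

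Luminal genes were low in class 1, with none called higher in any of the 3 luminal lists, beside 2.29% higher and 5.83% lower over all tested genes. Of 12 genes shared by luminal cells 7 were called lower, among them Krt18, Cldn3, Cldn7 and Krt7 for simple keratins and claudins. Krt18 held 8.94 and 13.3 CPM against 70.3 and 64.5 (-2.42 ± 0.43, SD, n = 2). Krt8 held 38.7 and 76.0 CPM against 194 and 151. Its libraries differed by nearly a factor of 2, and it was not called. Gata3, a luminal regulator, had 359 and 450 CPM against 361 and 376, a difference of 0.12 ± 0.19. Of 11 luminal progenitor genes 4 were lower. The receptor gene Kit, at chr5:75574987-75656722, held 8.94 and 11.4 CPM against 77.9 and 69.1, and the ETS factor genes Elf5 and Ehf differed by -1.68 ± 0.77 and -1.66 ± 0.11. Of 12 mature luminal genes 5 were lower. The prolactin receptor gene Prlr, at chr15:10177238-10349190, held 40.2 and 35.5 CPM against 199 and 209, Foxa1 41.7 and 45.0 against 145 and 144, and Pgr, for the progesterone receptor, 44.7 and 64.6 against 144 and 159. Esr1, for estrogen receptor alpha, had 164 and 130 CPM against 196 and 242 and was not called.

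**Figure D2:**
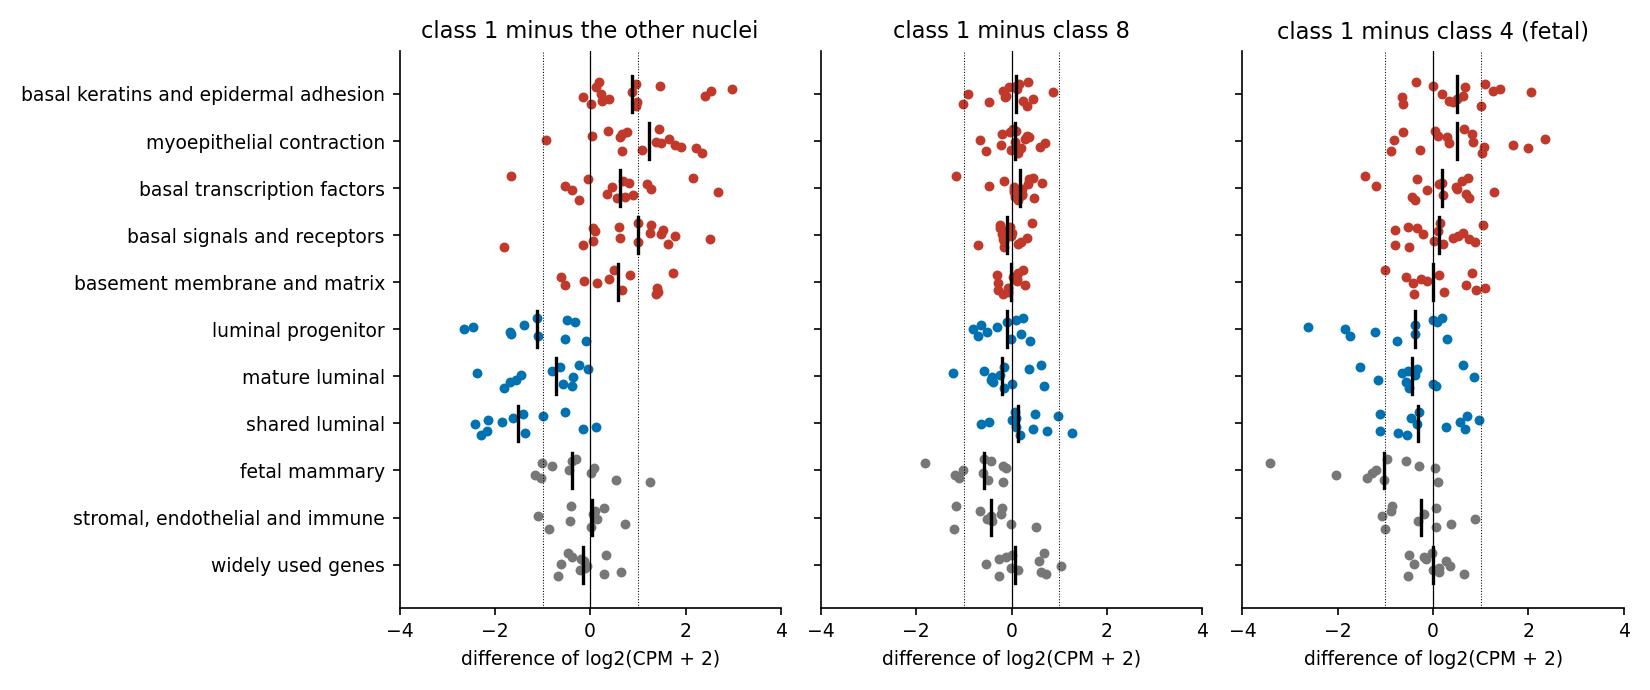
Differences of log2(CPM + 2) in gene spans for each listed gene (points) and the median of each list (black bar), for class 1 minus the other nuclei, class 8 and class 4 in 3 panels. The contraction list has a median of 1.24 in the first panel and 0.07 in the second. Dotted lines mark 1 and -1.

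Genes of other cell types were not called higher. Of 10 tested genes of stroma, endothelium and blood cells, none was called in either direction. Over all tested genes 2.29% were higher and 5.83% lower, so a count of 0 in so short a list is near the background. Their summed level was 277 and 296 CPM in class 1 against 283 and 285 in the other nuclei. The other nuclei include class 6, in which the collagen gene Col1a2 stood at a mean of 124 CPM. In class 1 Col1a2 stood at 22.8 CPM, the second of the 14 classes, as against 5.28 in class 2 and 6.16 in class 7. Class 8 also stood at 22.8 CPM, fetal class 12 at 19.6 and fetal class 4 at 16.8. Class 1 differed from the other nuclei by 0.74 at Col1a2. Cd3e, for a T cell surface protein, held 0 reads in adult replicate 1 and 4 reads in adult replicate 2, too few to test. None of 12 widely used genes was called, again near the background for a short list, and their median difference was -0.16.

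Beyond the listed genes, the highest differences were found at genes of varied function. Krt42, a keratin gene next to Krt17, held 95.3 and 78.5 CPM against 11.1 and 10.8, the highest difference after Krt5 (2.78 ± 0.17, SD, n = 2). Cxcl14, for a chemokine, held 50.6 and 134 CPM against 10.2 and 17.9, and its class 1 level differed between the libraries by more than that of any marker. Aebp1, for a matrix protein related to carboxypeptidases, held 124 and 88.0 CPM against 19.5 and 18.6, and Lep, for leptin, 44.7 and 27.2 against 4.77 and 5.55. Ankrd65, Tmem239, Rtp2, Dbh and D6Ertd527e were the other genes among the first 15, with differences from 2.34 to 2.76. At the low end, Amt, for a glycine cleavage enzyme, and Gstp3, for a glutathione transferase, had no class 1 read in either library. Set against a floor of 3 read pairs over both libraries they were at least 9.67-fold and at least 7.66-fold lower. Tmprss4, a transmembrane protease gene, held 2 class 1 reads in each library against 62.3 and 48.0 CPM in the other nuclei. The Ras-related gene Rasef held 6 and 8 reads (8.94 and 5.07 CPM against 124 and 114), and Arhgef38, for a guanine nucleotide exchange factor, 10 and 12 reads (14.9 and 7.60 CPM against 168 and 172). Cldn8, Rnf224, Cyp3a57, Prlh and St6galnac5 were the other 5 of the 10 lowest, all with at most 12 class 1 reads in a library.

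Motif scores were compared next. The deposited chromVAR deviation scores state, for each nucleus, whether regions that hold a motif have more reads than regions of like background; they are relative values around 0 and say nothing of the factor's own level. Of 427 motif columns, 388 hold different scores. Of these, 26 were in both adult libraries higher in class 1 than in the other nuclei by at least 0.5 (6.70%) and 65 were lower (16.8%). By sign alone, 43.8% lay above the other nuclei in both libraries and 44.3% below. The median difference over all motifs was -0.01. Across the motifs, the differences in both libraries correlated at r = 0.979 (n = 388 motifs, which share nuclei).

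The p53 family stood highest. Trp63 scored 3.15 and 3.01 in class 1 of adult replicates 1 and 2 against -0.72 and -0.40 in the other nuclei, and 98.7% of class 1 nuclei scored above 0. Its nuclei ranged from 1.21 at the 10th percentile to 5.04 at the 90th, and nuclei at or above the median number of reads scored 3.71 and 3.59 against 2.59 and 2.44 below it. Trp73, of the same family, scored 2.97 and 2.94, while Trp53 scored -0.19 and -0.07 against 0.22 and 0.20. Family members thus lay on both sides of the other nuclei. In the order of class 1 scores, a C/EBP, a TEAD, an NFI and a RUNX motif were also among the first. Their families were not called as a whole: 1 of 2 TEAD, 2 of 3 NFI and none of 2 RUNX motifs passed the threshold above the other nuclei, and Nfix lay below them by 0.10 and 0.07 (-0.91 and -1.01 against -0.81 and -0.94). Cebpg scored 0.87 and 1.02 against -0.19 and -0.27, Tead4, a motif of the Hippo pathway, 0.85 and 0.80 against -0.18 and 0.02, and Nfic 0.71 and 0.76 against -0.61 and -0.67. Runx1, whose scores equal those of Runx3, stood at 0.67 and 0.73 against 0.18 and 0.24, the highest mean of the 14 classes, but differed from the other nuclei by 0.49 in both libraries, under the threshold. Smad2, Srf and Pgr also had their highest class mean in class 1, as had 12 of 388 motifs in all. Srf, the CArG box factor of contractile genes, scored 0.31 and 0.44 against -0.15 and -0.10. All 7 SOX motifs were above the other nuclei in both libraries and 5 passed the threshold, with a median difference of 0.70, yet the class mean itself was near 0 (Sox9 0.10 and 0.13, Sox10 0.14 and 0.10). Gata2 scored 0.56 and 0.54 against -0.25 and -0.23.

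Foxa1, the pioneer factor motif of hormone-sensing luminal cells, was lowest at -1.99 and -2.27 against 1.20 and 1.34 in the other nuclei, and 2.10% of class 1 nuclei scored above 0. Grhl1, a motif of the grainyhead family of epithelial factors, followed at -1.70 and -1.92 against 0.25 and 0.20. All 7 ETS motifs lay below the other nuclei in both libraries and 5 passed the threshold, Elf5 standing at -0.90 and -0.85 against 0.42 and 0.06. Of 9 E-box motifs 8 lay below in both libraries and 7 passed, with Snai2 at -1.19 and -1.02 against 0.31 and 0.22, although the Snai2 gene span was more accessible. Of 12 AP-1 motifs and their like, 11 lay below and 7 passed, with Fos at 0.48 and 0.41 against 1.02 and 1.22; Fosl2 lay above by 0.13. Class 1 was lowest of the 14 classes for 12 of 388 motifs, among them the Krüppel-like factor motif Klf4 (-0.58 and -0.69). It was highest for 12 of 388, so few motifs had an extreme in class 1.

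**Figure D3:**
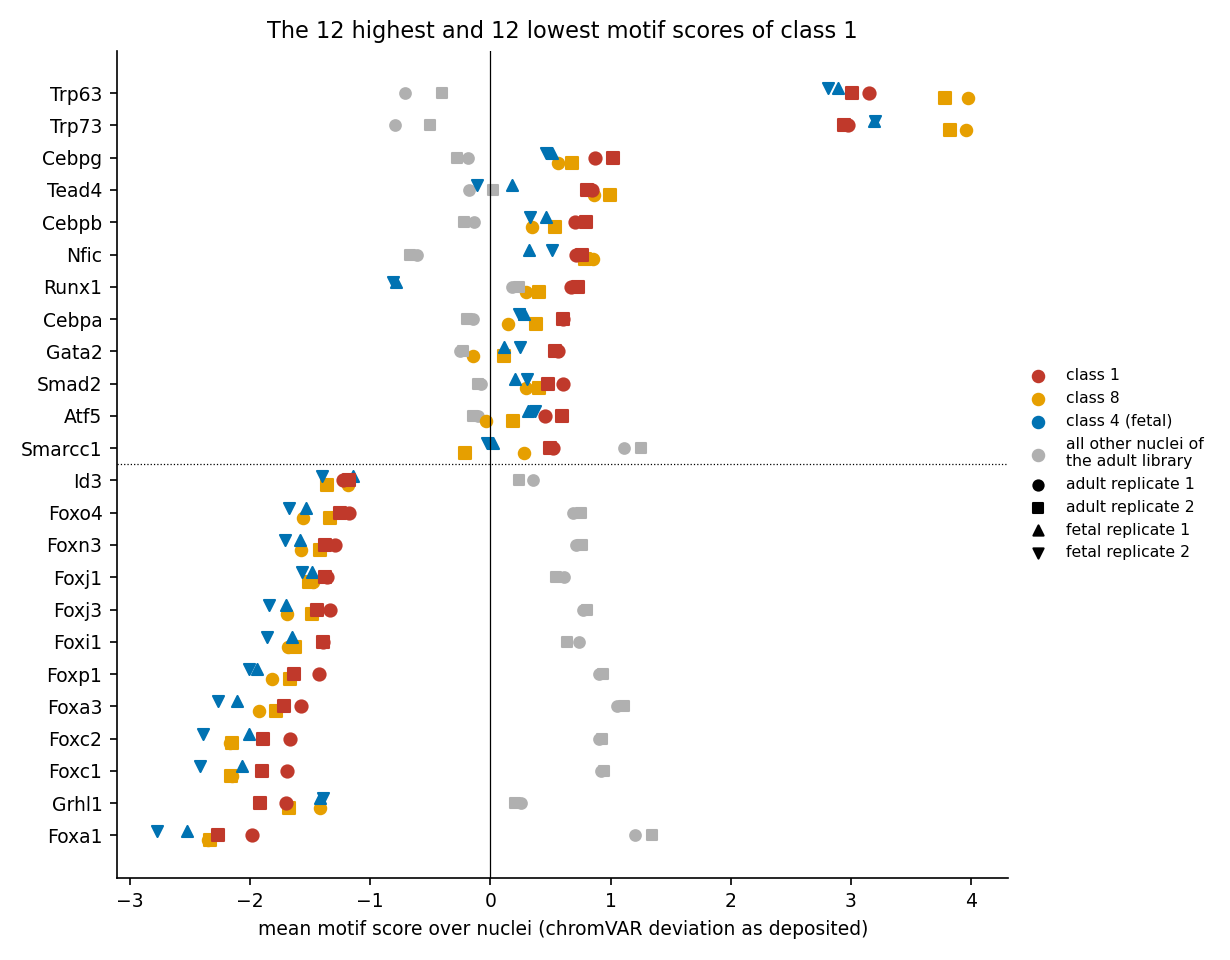
Mean chromVAR deviation score of the 12 highest and 12 lowest motifs of class 1, 1 point per library, for class 1 (red), class 8 (orange), fetal class 4 (blue) and all other nuclei of the adult library (grey). Trp63 sits at 3.15 and 3.01 in class 1 and at 3.98 and 3.78 in class 8, and Foxa1 at -1.99 and -2.27 in class 1 against 1.20 and 1.34 in the other nuclei.

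Distal regions were called more often than genes. They held fewer reads, a median of 14 class 1 reads against 92 for genes, and the kinds were not compared at like depth. Of 36253 distal regions tested, 3716 (10.3%) were called higher and 9911 (27.3%) lower, with a median difference of -0.46. Against the mean of the class levels 5618 were higher and 6498 lower. The differences of both libraries correlated at r = 0.735 across regions, which share reads of the same nuclei, and 266 regions passed in opposite directions. Of the higher regions 1484 were also called higher than in fetal class 4, where 14% of all tested distal regions were higher.

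The 8 leading distal regions held few reads in the other nuclei. First came a region within Galnt14, an enzyme gene of mucin-type glycosylation, at chr17:73541654-73542653. It held 24 and 60 class 1 reads, that is 95.2 and 101 CPM against 1.6 and 5.86 (4.23 ± 0.74, SD, n = 2). Dkk3, for a secreted protein of the Dickkopf family, held a region at chr7:112143804-112144803 with 46 and 135 reads, 182 and 226 CPM against 8.28 and 13.5. A region at chr4:64527245-64528244 lay 480230 bases from its nearest gene, Tnc, which encodes tenascin-C. It reached 83.3 and 112 CPM against 2.14 and 8.47, with 0 and 2.94 CPM in class 4. The region nearest Arhgef28 at chr13:97842322-97843321 held 31 and 55 reads (123 and 92.1 CPM), against 5.27 and 28.8 CPM in class 8. At chr8:107114320-107115319, nearest Terf2, class 1 held 119 and 90.5 CPM and class 8 only 10.5 and 9.61. The remaining regions lay near Lmo1 and Plpp3 and within Aff3, with differences of 4.09, 3.85 and 3.86. For 7 of the 8 regions class 1 had the highest level of the 14 classes, Plpp3 being the exception. Beyond Arhgef28 and Terf2, class 8 means were 105 CPM at Dkk3, 74.6 at Aff3, 51.8 at Plpp3, 41.5 at Tnc, 36.2 at Galnt14 and 30.2 at Lmo1. Fetal class 4 stood at 89.7 CPM at Dkk3, 83.7 at Aff3 and at most 42.8 at the others. At Aff3 fetal class 12 stood at 101 CPM, beside 119 in class 1. These regions were chosen for their difference, so their order is a description.

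At the other end, regions within Myo5c, Basp1 and Tspan14 and near Ankrd34c held no class 1 read in either library. Against the floor of 3 read pairs they were at least 14-fold, 13.8-fold, 13.4-fold and 13.3-fold lower than the other nuclei.

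Regions around the basal markers followed the gene spans at some genes and not at others. Over all tested distal regions 10.3% were called higher and 27.3% lower, the background for the counts that follow. Within 50 kb of Trp63, 4 of 8 tested distal regions were called higher, led by chr16:25875625-25876624 inside the gene with 19 and 66 reads and a difference of 3.33. Acta2 had 3 of 4 higher and 1 lower, Irx4 2 of 4 higher and 1 lower, and Il17b 4 of 14 higher and 1 lower. The receptor gene Oxtr had 4 of 6 higher. A region at chr11:100254626-100255625, beside Krt17 and within 50 kb of Krt14, held 26 and 80 reads and differed by 2.41, the only one called higher at either gene. The other tested regions of Krt17 (9 in all) were not called, and at Krt14 3 of 8 were lower, with a median difference of -0.58. Krt5 had 1 tested distal region, which was not called, and at Myh11 1 of 2 was lower and none higher. Luminal markers differed among themselves too, beside the 27.3% of all distal regions that were lower. All tested regions of Foxa1 (12 of 12) and Kit (3 of 3) were lower, 4 of 5 at Cd14, 3 of 4 at Prlr and 12 of 22 at Krt8. Aldh1a3 had 2 of 10 lower and 1 higher, Ly6a 1 of 3 lower, and Lbp had none of 3 called. Within gene spans, Rbpms held 9 higher regions of 13 tested, Slit3 8 of 14, Nfix 8 of 17, Nrg1 7 of 11 and Prickle2 6 of 7. These genes were chosen after their values were seen, from 21 with at least 6 higher regions, and long genes can hold more.

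The authors' deposited table of Cicero scores, computed over nuclei of all classes, lists pairs of regions that open together. In the authors' deposited table the region beside Krt17 paired best with a promoter region of Krt14 at chr11:100207509-100208508, with a score of 0.573. The Dkk3 region had 25 partners with a score of at least 0.2 in the authors' deposited table, and 8 of the 11 tested distal partners were higher in class 1. For the leading Trp63 region it was 5 of 6. For the Basp1 region, which was lower in class 1, 0 of 18 were higher. Against the background of 10.3%, partners of higher regions were often higher themselves; the scores came from all nuclei, these included, and are no independent support.

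Promoter regions were called less often than distal regions, at a median of 45 class 1 reads against 14. Of 13134 tested, 336 (2.56%) were called higher and 770 (5.86%) lower. The balance depended on the reference: against the mean of the class levels, which weights each class alike, 546 were higher and 441 lower. The first was a region listed as a promoter at chr7:134230830-134231829, 5733 bases from Adam12, a metalloprotease gene, with 30 and 67 reads and 142 and 134 CPM against 4.63 and 10.8. Regions at the ends of Jph2, for a junctophilin of muscle, of Plaat1, for a phospholipase, and of Plin4, for a perilipin, differed by 3.21, 3.13 and 3.06. The Plaat1 region, at chr16:29208487-29209486, stood at 123 and 126 CPM in class 1, at 118 and 130 in class 8 and at 0 and 1.79 in fetal class 4. The others were regions near Irs2, Rtp2 and Cntn2 and inside Igfbp3. The lowest lay at Rasef, Tmprss4 and near Slfn2. One Rasef region, the Tmprss4 region and the Slfn2 region held no class 1 read, at least 10.5-fold, 9.44-fold and 9.26-fold below the other nuclei, and a further Rasef region held 0 and 2 reads.

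Class 8 carried the same markers, and none of the 8 was called between the classes, where 0.634% of all tested genes were called higher in class 1 and 4.62% lower. Krt5 stood at 83.1 and 82.1 CPM in class 8, Krt17 at 185 and 145, Trp63 at 294 and 228 and Oxtr at 129 and 166. The median difference of the basal markers, class 1 minus class 8, was -0.04, and no gene of the keratin, contraction, transcription factor, signal or matrix lists was called. Some genes of other lists were lower in class 1. Of 11 fetal mammary genes 2 were called lower, Sox11 at 2.98 and 6.33 CPM against 22.2 and 19.4 in class 8 and Igf2bp1 at 11.9 and 7.60 against 33.3 and 17.8. The stromal, endothelial and immune list summed to 277 and 296 CPM in class 1 against 355 and 383 in class 8, and of its 10 tested genes Cdh5, for the endothelial cadherin, was called lower. Immune markers were hit in 1.99% and 1.91% of thinned class 1 nuclei against 1.49% and 7.41% in class 8. The part of other cell types in the comparison was not tested. The classes also differed in where reads fell. Promoter regions took a median of 25.4% and 25.4% of the reads of a class 1 nucleus against 19.2% and 18% in class 8. In the libraries 95.5% and 98.3% of class 1 nuclei lay above the class 8 median. Promoter and distal regions together took 70.8% and 70.2% in class 1 and 63.0% and 57.5% in class 8, the remainder falling outside listed regions. Within the 100 bases before 17273 gene starts, class 1 placed 37641.7 and 38908.1 reads per 1000000 of the class and class 8 placed 26093.1 and 24893.8. The ratio of reads near the start to reads in the flanks was 22.4 and 23.5 in class 1 against 17.0 and 17.1. A high promoter share was not particular to class 1. Among other adult classes class 7 had medians of 27.7% and 26.7%, and class 2 had 25.7% and 23.2%. Depth moved with the comparison, since class 8 nuclei had more reads, and its part in the difference was not tested.

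**Figure D4:**
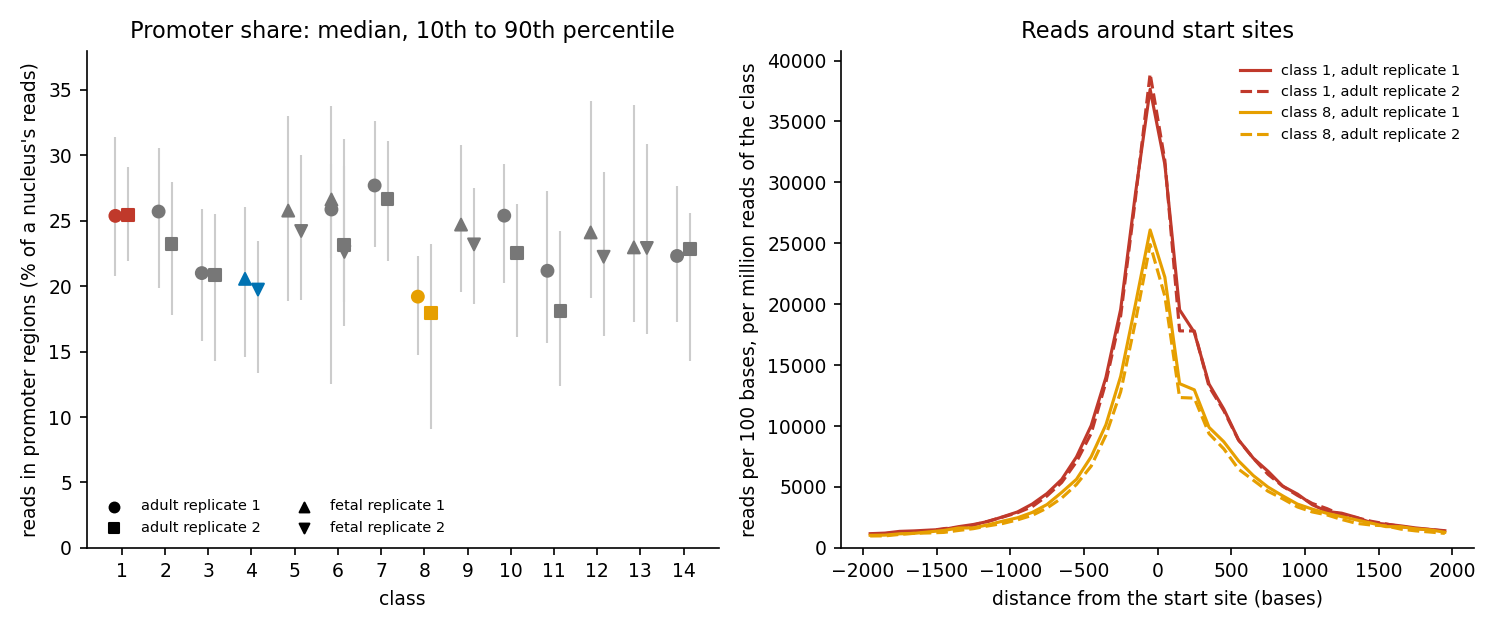
Left, median share of a nucleus's reads in promoter regions (percent) by class and library, with lines from the 10th to the 90th percentile of nuclei. Right, reads in CPM of the class in bins around gene start sites for classes 1 and 8, by distance from the start in bases. Class 1 lies at 25.4% in both libraries, above class 8 at 19.2% and 18%, and its peak just before the start is higher.

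Gene spans were called higher than in class 8 for 107 genes (0.634% of those tested) and lower for 780 (4.62%), and 170 passed in opposite directions in the libraries. Across genes, the class 1 minus class 8 differences of both libraries correlated at r = 0.335, against 0.638 for class 1 minus the other nuclei, so single genes are held less firmly here. The lower genes were long and sparse in listed regions. Their median span was 70.0 kb against 24.4 kb for all tested genes, 62.2% held a promoter region against 89.3%, and they held 3.89 listed regions per 100 kb against 13.9. The 107 higher genes had a median span of 9.27 kb. When all tested genes were divided into 5 groups of like size by span, the median difference fell from 0.16 and 0.19 in the shortest group to -0.21 and -0.17 in the longest. The share called lower rose from 1.36% to 11.0%. The pairs of luminal classes that differ in promoter share moved alike: class 7 minus class 3 went from 0.10 and 0.09 to -0.26 and -0.24, and class 2 minus class 11 from 0.10 and 0.14 to -0.21 and -0.20. The single genes overlapped in part. Of the 780 genes 123 were also lower in class 7 than in class 3, which is 15.8% of the 780 and 26.4% of the 466 lower there, where 2.76% of all tested genes were lower. In class 2 minus class 11 it was 51 genes, 6.54% of the 780 against 1.10% of all tested genes. At the top of the ranking, Rps25, for a ribosomal protein, held 41.7 and 43.1 CPM against 7.39 and 7.74 in class 8, and it overlaps Trappc4. H2-D1, for a class I histocompatibility chain, held 50.6 and 36.1 CPM against 0 and 24.8, and was not called, since its difference in adult replicate 2 was 0.51. At the bottom stood, among others, the cadherin gene Cdh19 (2.98 and 6.33 CPM against 109 and 29.4), the calcium pump gene Atp2b2 (2.98 and 15.8 against 73.9 and 79.0) and Tyr, for tyrosinase, with 0 and 3 class 1 reads. These genes are the extremes of a ranking by difference, and several rest on few reads.

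**Figure D5:**
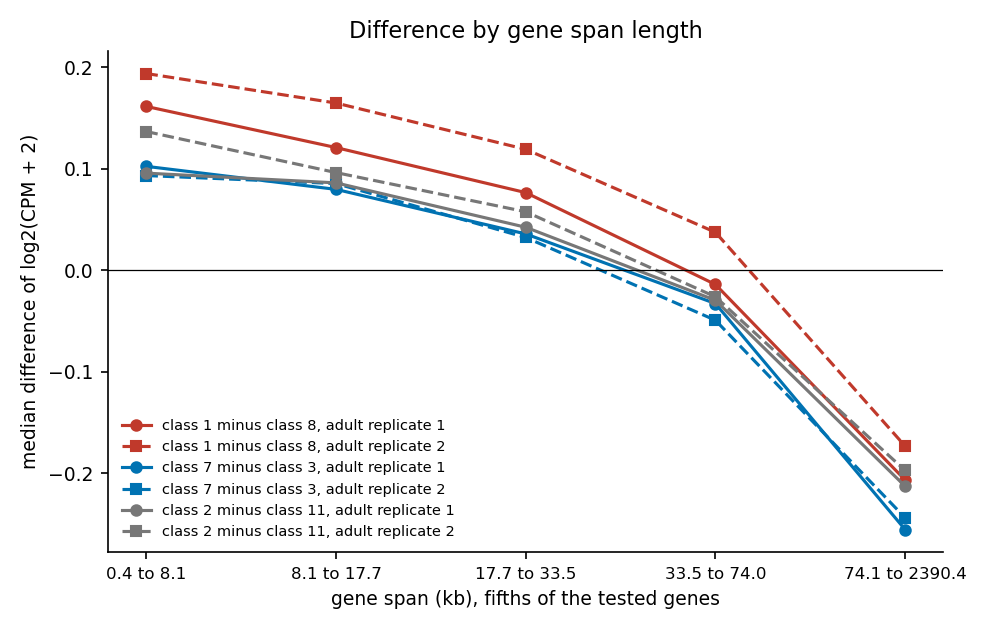
Median difference of log2(CPM + 2) by group of gene span length (kb, 5 groups), for class 1 minus class 8 and for the luminal class pairs 7 minus 3 and 2 minus 11, 1 line per library. All 6 lines fall from above 0 in the shortest group to below 0 in the longest, class 1 minus class 8 from 0.16 and 0.19 to -0.21 and -0.17.

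Distal regions were called higher than in class 8 in 4.38% of cases and lower in 5.92%, and promoter regions in 1.88% and 3.02%. For distal regions the differences of the libraries correlated at r = 0.109, and 2443 regions passed in opposite directions, more than the 1588 called higher or the 2145 called lower. Promoter regions were alike, with r = 0.101 and 415 that passed in opposite directions against 247 called higher and 397 lower. A call on a single region is therefore weak in this comparison. Among motifs, none was higher than in class 8 by 0.5 in both libraries and 2 were lower. Trp63 differed by -0.82 and -0.77 and Trp73 by -0.98 and -0.88. Trp63 scores were higher in nuclei with more reads, and class 8 was deeper. Within 4 bands of reads per nucleus, an alternative added after the data had been seen, the Trp63 difference averaged -0.43 and -0.38. It was -0.16, -0.31, -0.47 and -0.78 from the lowest to the highest band in adult replicate 1 and 0.18, 0.01, 0.00 and -1.73 in adult replicate 2. The Trp73 difference averaged -0.51 and -0.48 within the bands, so neither motif reached -0.5 in both libraries there. In adult replicate 2 the Trp63 difference lay almost wholly in nuclei with at least 7000 reads, 74 of class 1 and 95 of class 8. That band has no upper limit, and class 8 reached 25761 reads there against 16140 in class 1. Depth was therefore not made equal within it. Gata2 was higher in class 1 by 0.71 and 0.43, and within the bands by 0.71 and 0.45. Fos was higher by 0.24 and 0.68, and within the bands by 0.36 and 0.73.

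Fetal class 4 was set beside class 1 for its basal markers, and fetal class 12 was close to it by these. A read in at least 1 of the 8 was held by 46.2% and 50.3% of thinned class 4 nuclei and by 41.3% and 49.0% of class 12, and Krt5 stood at a mean of 32.7 CPM in class 4 and 15.3 CPM in class 12. Class 12 was not compared further. Stage and class coincide here, so age, clustering and any batch that follows age cannot be told apart. A feature was called when the mean of the adult libraries differed from that of the fetal libraries by at least 1 and the libraries of both groups did not overlap. By this rule 3.04% of tested genes were higher in class 1 and 10.8% lower, 14% and 17% of tested distal regions, and 6.09% and 8.19% of tested promoter regions. Features were kept for testing by their reads over the adult nuclei alone, in this comparison too. Features open mainly in fetal nuclei could thus be left out, while those open mainly in adult nuclei stayed in. The shares therefore describe the tested features and do not give the balance between class 1 and class 4. Of the 8 basal markers 5 were higher in class 1 and none lower. Krt5 stood at 28.6 and 36.8 CPM in class 4 (a difference of 1.41) and Myh11 at 42.9 and 50.6 (1.68). Trp63 stood at 190 and 231 CPM, under the threshold at 0.74, as did Krt14 at 61.5 and 67.2 (0.62).

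Of the 16 contraction genes 5 were higher in class 1 than in class 4 and none lower. Oxtr stood at 22.9 and 48.8 CPM in class 4 against 176 and 180 in class 1, a difference of 2.34, the greatest of the list. Cnn1 followed at 5.72 and 24.8 against 59.6 and 50.7 (1.98). Cav3, which overlaps Oxtr and encodes the muscle caveolin, headed all genes with 53.6 and 41.8 CPM in class 1 against 0 and 11.5. Tagln ran the other way without passing, at 67.2 and 40.5 CPM in class 4. Nrg1, at 1393 and 1283 CPM in class 4, stood above class 1 by less than the threshold (-0.80). Of 11 fetal mammary genes 6 were lower in class 1 and none higher. Sox11, a factor of fetal tissue, held 2.98 and 6.33 CPM in class 1 against 62.9 and 72.2 in class 4 (-3.43). The others were Igf2, for a growth factor, Igf2bp1 and Lin28b, for RNA-binding proteins, Lef1, for a transcription factor of the Wnt pathway, and Dlk1, for a membrane protein related to Notch ligands. Of the 10 tested stromal, endothelial and immune genes 2 were lower in class 1 and none higher, the endothelial genes Cdh5 (5.96 and 8.23 CPM against 14.3 and 18.4) and Kdr (5.96 and 13.9 against 25.7 and 18.4). The list summed to 277 and 296 CPM in class 1 and 314 and 366 in class 4, and the part of other cell types was not tested. Kit, Elf5, Lbp and Csn3 of the luminal progenitor list were lower in class 1 than in class 4 as well, Kit at 8.94 and 11.4 CPM against 44.3 and 38.6. Elf5 stood at 35.7 and 33.6 CPM in class 4 and 8.94 and 20.9 in class 1.

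Between class 1 and class 4 the Trp63 motif differed little, at 3.15 and 3.01 against 2.89 and 2.81. The motif with the highest difference was Runx1 (equal to Runx3), at 0.67 and 0.73 in class 1 against -0.79 and -0.81 in class 4. Nfkb1 stood at 0.65 and 0.16 against -0.76 and -0.91, with class 1 libraries that differed from each other. Tead4 stood at 0.85 and 0.80 against 0.18 and -0.12. Lower in class 1 were Nfix (-0.91 and -1.01 against 0.19 and 0.63), Sox9 (0.10 and 0.13 against 1.21 and 1.04) and Sox4 (0.08 and 0.12 against 0.84 and 0.87). The Nfix motif was thus lower while the related Nfic motif stood at 0.71 and 0.76 in class 1 and 0.32 and 0.51 in class 4.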

How the data were processed

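The authors deposited, for each library, a list of read positions with barcodes and a list of the barcodes kept as nuclei, and for the series lists of promoter and distal regions, a chromVAR score table and Cicero scores. Bowtie2, MACS2, bedtools and mm10 are named in the submitters' processing notes; their roles, versions and settings, and any shift of cut sites, are not given in the sources used here. The deposited reads were counted here: a read belonged to each feature it overlapped by at least 1 base, with no shift. Counts were summed per class and library, because nuclei are not replicates. Chromatin openness is measured here, not RNA. The authors' deposited score is a chromVAR deviation per nucleus and motif, and was averaged over the nuclei of a class in each library. The authors' deposited Cicero score is a co-accessibility between regions over all nuclei. The gene accessibility table was not used, since its columns name no nucleus.

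Features with fewer than 100 reads over the adult nuclei were left out, and so were their reads from the totals used for CPM. A pseudocount of 2 CPM was added before log2. Where a class had no read, the floor was 3 read pairs (6 reads), and floors and intervals cover counting error only. Gene spans, start sites and promoter sequences came from RefSeq for GRCm38.p6 by symbol, and 13395 of 16869 tested genes had a promoter sequence. The marker genes Trp63, Krt14, Krt17, Il17b and Myh11 have no sequence shown. Of 191 listed or named genes, 75 have flanked spans that overlap another gene, and their shared reads count for both.

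Members and lists were chosen with earlier results of these data known. Named genes were all markers, the 15 highest and 10 lowest called genes, and, against class 8, the 8 at each end that had the same sign in both libraries; the same number is given against class 4. For each list the 4 highest and 2 lowest members could be named. Motifs named were the 12 highest and 12 lowest and the listed ones. Regions named were the 8 highest and 4 lowest; a gene or region had to hold at least 20 class 1 reads in each adult library to be named as high. Genes and regions that fall outside this rule were named after their values were seen. The rule for calls was run on read pairs simulated from the summed counts, which does not check the counting of reads itself. Alternatives were another pseudocount, filter, scaling (TMM factors of edgeR 4.0.16 in R 4.3.3), reference and depth, and each library left out. Scripts ran in Python 3.11.15, with scipy 1.17.1, pandas 2.3.3 and numpy 2.4.6 for values and matplotlib 3.10.9 for plots. Some listed genes and motifs are not reported here.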

Additional observations from a re-analysis of the deposited data

How the results depend on the processing

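Over 176 single values and 958 alternatives, 746 values moved by less than the spread between the libraries, 197 moved by more and 15 changed sign. A value and its spread came from the same adult libraries. Leaving out a library therefore moved the mean by less than the spread by construction. Such alternatives are among the 746 unless the sign changed, and that part of the count is no check. The values that changed sign were all small or of low genes. Taking the median over nuclei, the motif Tcf7 became 0.01008 and Hes1 -0.04693. In nuclei at or above the median depth, Nr3c1 became 0.05869, Tcf7 0.05252 and Hes1 -0.000816. With each adult library left out, Twist1 ran from -0.09945 to 0.006321, Tcf7 from -0.0437 to 0.002212, Rbpj from -0.0258 to 0.002656 and Hes1 from -0.04229 to 0.05249. Among genes, Ly6a ran from -0.8273 to 0.1186, Col1a1 from -0.3746 to 0.4158, Col3a1 from -0.9722 to 0.1242 and Pdgfra from -0.1585 to 0.2617. Against the mean of the class levels, Col1a1 became -0.03833 and Pdgfra -0.113.

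Against the other nuclei, counts of called distal and promoter regions depended on the filter and the reference more than on scaling. For genes called higher it was the reverse: 386 became 452 with TMM factors, 412 without a filter and 389 against the mean of the class levels. Without a filter on low counts, 10404 distal regions were higher and 29755 lower, and 669 promoter regions were higher and 2134 lower, as more features were tested; a filter of 200 reads gave 1336 and 3794 distal regions. Against the mean of the class levels, 5618 distal regions were higher and 6498 lower, 546 promoter regions higher and 441 lower, which turns their balance, and 643 genes lower. A pseudocount of 5 gave 640 lower genes, and deep nuclei gave 44 higher motifs. The Trp63 motif difference from class 8 moved from -0.795 to -0.408 within bands of depth, an alternative added after the data had been seen. The highest band has no upper limit, so depth was not made equal within it.

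With an adult library left out, only 1 library had to pass against the other nuclei and class 8, so those counts rose by construction. Genes higher ran from 560 to 826 and lower from 1806 to 2242, distal regions higher from 5487 to 6197, and promoter regions higher from 608 to 961 and lower from 1451 to 2068. Against class 8, genes ran from 631 to 1512 higher and 1645 to 1978 lower, distal regions from 5733 to 7577 and 7009 to 8039, and promoter regions from 1076 to 2125 and 1233 to 2152. Against class 4, where group means are compared, genes higher ran from 498 to 1029 and promoter regions higher from 768 to 1689. These lay on both sides of the 512 and 800 with all libraries. Distal regions lower ran from 6526 to 9245 and promoter regions lower from 1180 to 1847, always above the 6150 and 1076 with all libraries. Against the other nuclei, none of the 8 basal markers changed sign under these settings; against class 8, the differences of Krt14, Krt17, Irx4 and Acta2 had opposite signs in the adult libraries. No test was made, paired or not, but differences from the other nuclei and class 8 were formed within each adult library. Depth limits calls on single regions: a distal region held a median of 14 class 1 reads and a promoter region 45.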

Other observations

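Promoters of the genes called in class 1 differed in base composition from those of all tested genes. In windows of 300 bases, the median number of CpG dinucleotides was 18 over 13395 promoters, 11 over the 283 of genes called higher and 6 over the 764 of genes called lower. Windows with fewer than 5 CpG made up 13.7%, 23.3% and 41.1% of these sets. The SP motif GGGCGG occurred in 58.2% of all windows, 49.1% of those of higher genes and 32.3% of those of lower genes, and the ETS motif CCGGAA in 23.5%, 9.89% and 12.2%. The CArG box occurred in 1.30%, 2.47% and 1.18%, and the p53-family half-site in 7.17%, 8.83% and 8.12%. Lower genes held more matches than higher genes for SOX (8.07%, 6.71% and 12.8%), TEAD (12.6%, 14.1% and 17.0%), AP-1 (5.70%, 8.13% and 10.1%) and the FOX motif TGTTTAC (2.58%, 2.12% and 4.45%), although SOX and TEAD motif scores were higher in class 1. Motifs were searched on both strands, a match is a description of letters, and no test was made.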
